A study of Mus musculus with 6 samples.

Results

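The class B receptors for peptide hormones described here are 10 genes of 55450 counted: the glucagon family receptors Glp2r, Glp1r, Gipr and Gcgr, the corticotropin-releasing hormone receptors Crhr1 and Crhr2, the receptors Vipr1, Vipr2 and Adcyap1r1 for VIP and PACAP, and the parathyroid hormone receptor Pth2r. Glp2r was taken because its counts were higher in heterozygous libraries, so its genotype values are given as a description with no test, and the other 9 genes were taken as its relatives by family. The series holds RNA-seq of adult mouse cerebral cortex from polyadenylated RNA, with 3 libraries labelled Setd5 heterozygous and 3 labelled wild type. The labels do not state which part of Setd5 is altered, the strain, the sex or the exact age of the mice. They also do not say whether each library comes from its own animal, so p-values measure the spread between libraries, which may be partly technical. Setd5 is a chromatin gene with a SET domain, and the design sets cortex with a single mutated copy against cortex with none.

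Class B receptors are G protein-coupled receptors with a large extracellular domain that holds the carboxy end of a peptide hormone while the amino end of the peptide enters the membrane bundle. Most couple to the stimulatory G protein Gs, which activates adenylyl cyclase and raises cyclic AMP. In the brain, CRH and its receptors serve stress signalling, VIP and PACAP act as transmitters of interneurons and projection neurons, and the glucagon-like peptides come mainly from neurons of the brainstem that express proglucagon.

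Totals ran from 82850628 to 92860628 counts per library, and a count of 0 allows up to 3 counts, or 0.0326 to 0.0364 CPM (counts scaled to library size), which covers counting error only. Setd5 itself was at 68.7 to 75.3 CPM in the 3 heterozygous libraries, against 97.0 to 111 CPM in the 3 wild type libraries. Wild type replicate 3 stood apart in markers of striatum, the region beneath the cortex. Summed CPM of 9 striatum markers was 192, 253 and 428 in heterozygous replicates 1 to 3, against 133, 244 and 1010 in wild type replicates 1 to 3, and all 9 were detected in every library. Cortical excitatory markers, the check of the labelled tissue, summed to 1350 to 1510 CPM over 9 genes in heterozygous libraries and 1320 to 1440 CPM in wild type libraries. Xist was above 1 CPM in heterozygous replicate 3 (865 CPM) and wild type replicate 3 (784 CPM) only, against 0.45 to 0.876 CPM in the other libraries. Wild type replicate 3 is thus both the library with the most striatum marker counts and the only wild type library with Xist above 1 CPM. Summed levels overlapped between genotypes for interneuron, astrocyte, oligodendrocyte, microglia, thalamus, choroid plexus, hippocampus, hypothalamus and olfactory bulb markers. They did not overlap for 7 endothelial markers (127 to 132 CPM in heterozygous libraries, against 137 to 145 CPM in wild type libraries), for 8 mural cell markers (253 to 258 and 262 to 323 CPM), and they overlapped narrowly for 6 meningeal markers (38.5 to 43.0 and 41.5 to 88.5 CPM).

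**Figure D1:**
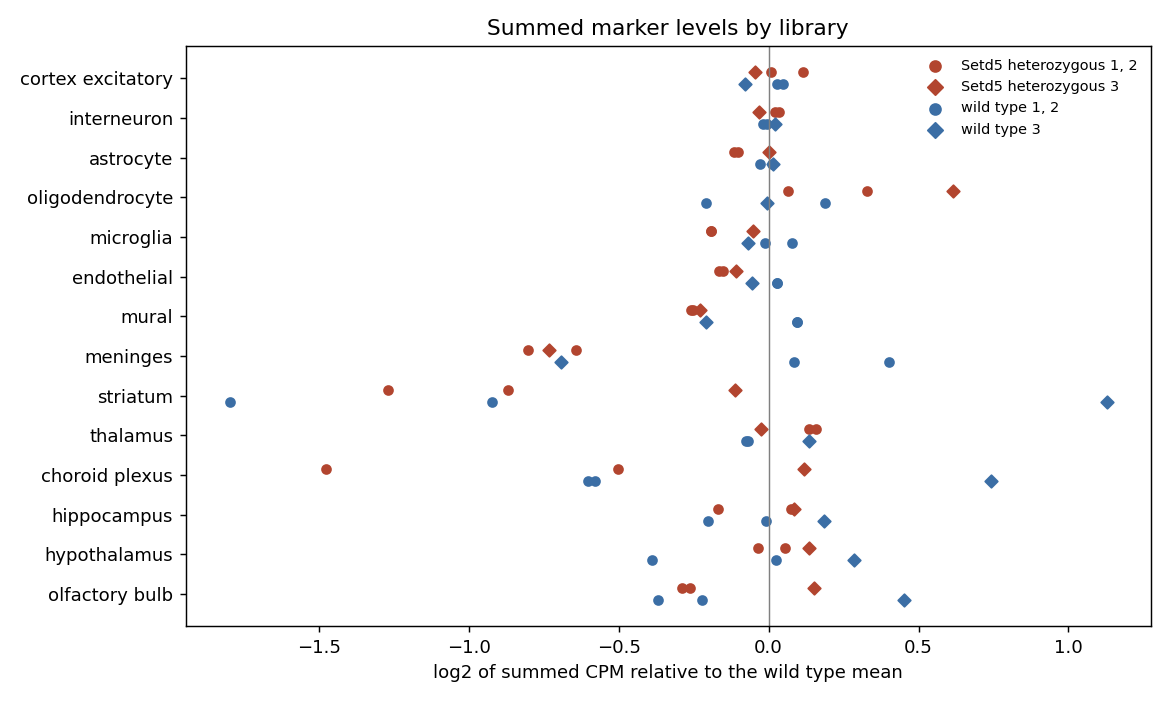
Summed marker levels by library, as log2 of the summed CPM relative to the wild type mean (horizontal axis), for 14 marker lists (rows). Red symbols are heterozygous and blue symbols wild type libraries, with replicate 3 of each genotype as a diamond. Striatum markers spread most, with wild type replicate 3 at 1010 CPM and wild type replicate 1 at 133 CPM.

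Promoters are shown first for Glp2r and Pth2r, the only pair of the 10 receptors for which the heterozygous and wild type libraries did not overlap. Groups did not overlap for 11.7% of all genes tested, and Glp2r was chosen for its separation. Each sequence runs from 250 bases before to 50 bases after the start of the gene in RefSeq on GRCm38.p6, written 5′ to 3′ on the gene's own strand, and capitals mark CG dinucleotides. The Glp2r window is chr11:67771104-67771403 on the minus strand and the Pth2r window chr1:65311007-65311306 on the plus strand. In GENCODE M21, the annotation used for the counts, the Pth2r gene begins at base 65282056, upstream of its window. The Glp2r window covers the start of transcript Glp2r-202, while transcript Glp2r-201 starts 13.450 kilobases further on. Annotated starts outside these windows were not examined.
Glp2r: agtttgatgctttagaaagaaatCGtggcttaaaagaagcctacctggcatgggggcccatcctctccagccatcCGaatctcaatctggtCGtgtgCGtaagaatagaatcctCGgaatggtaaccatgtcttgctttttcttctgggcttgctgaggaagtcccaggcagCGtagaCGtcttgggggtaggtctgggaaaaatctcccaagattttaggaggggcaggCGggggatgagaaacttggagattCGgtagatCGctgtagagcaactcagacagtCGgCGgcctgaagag
Pth2r: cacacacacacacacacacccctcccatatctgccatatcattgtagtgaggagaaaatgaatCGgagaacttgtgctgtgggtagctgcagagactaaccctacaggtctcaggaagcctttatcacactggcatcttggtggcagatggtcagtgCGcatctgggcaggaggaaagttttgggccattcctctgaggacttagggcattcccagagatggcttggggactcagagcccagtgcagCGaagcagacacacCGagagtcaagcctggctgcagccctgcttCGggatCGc

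These 2 windows hold 12 and 6 CG dinucleotides at a GC content of 51.3% and 54.7%, near the median of 7 CG dinucleotides and 52.7% over 32851 promoters of the same length. The set of RefSeq promoters used here held 9 of the 10, all but Gipr. Those of Glp1r, Gcgr, Crhr1 and Vipr1 were GC-rich, from 71.7% to 75.0% with 29 to 35 CG dinucleotides. The windows of Vipr2 and Adcyap1r1 lay between, at 65.3% and 67.3% GC, and that of Crhr2 had 59.0% GC with 5 CG dinucleotides. The cyclic AMP response element TGACGTCA, searched on both strands, was in 0 of the 9 windows and in 1.79% of all promoters, and its core TGACG, which is part of the longer motif, was in that of Vipr1 alone, against 20.8% of all promoters. The GC box GGGCGG was in 6 of 9, those of Glp1r, Gcgr, Crhr1, Vipr1, Vipr2 and Adcyap1r1, against 35.7% of all. A TATAAA box was found in the Crhr2 window (13.6% of all) and CCAAT in those of Vipr1 and Adcyap1r1 (37.4% of all). The Glp2r and Pth2r windows held none of these 5 motifs, which says only that these letters are not in these windows.

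Levels of the receptors in cortex spanned a wide range per length of exon. Counts were divided by the exon length of the gene, counting each exonic base once, to give CPM per kilobase. Adcyap1r1, the PACAP receptor PAC1, was the most abundant of the 10, with a mean of 14.8 CPM per kilobase over the 6 libraries and a range from 13.6 to 15.9, above 84.9% of 19145 protein-coding genes with at least 1 count. Crhr1, the main CRH receptor of the forebrain, followed at 8.81 (range 6.81 to 11.2) and Vipr1, a receptor for VIP and PACAP, at 4.59 (3.70 to 5.25). Glp2r ranked 4 of 10 at 1.95 CPM per kilobase (1.56 to 2.51), above 44.6% of these coding genes. Pth2r followed at 0.887 (0.694 to 1.13) and Gipr, the receptor of the incretin GIP, at 0.407 (0.2 to 0.554). Vipr2 (0.132), Crhr2 (0.117) and Glp1r (0.0865), the receptor of the incretin GLP-1, were low, and the ranges of these 3 neighbours overlapped in the order of levels. Every other pair of neighbours had 6 libraries on each side with no overlap. Gcgr, the glucagon receptor of liver, had 4 counts in heterozygous replicate 1, 4 counts in wild type replicate 1 and 0 in the other libraries, which leaves it at the limit of detection at this depth. Within the glucagon family, therefore, Glp2r was the most abundant per length in every library and Gcgr the least.

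**Figure D2:**
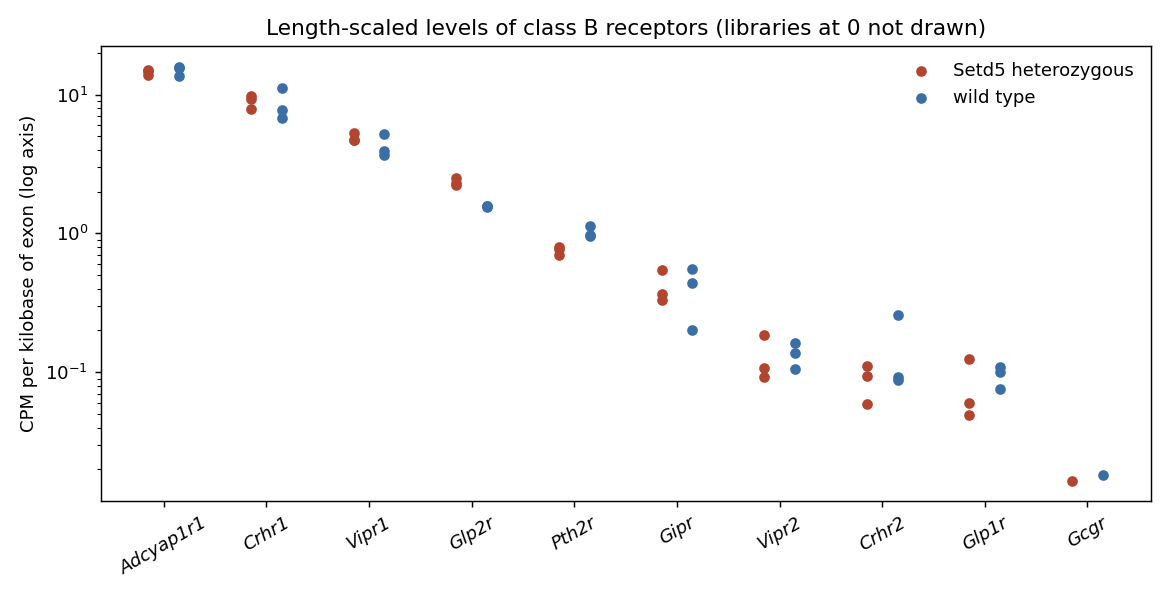
Levels of the 10 receptors in CPM per kilobase of exon (vertical axis, log scale), with heterozygous libraries in red at the left of each gene and wild type libraries in blue at its right. Libraries with a count of 0 are not drawn, which leaves 1 point per genotype for Gcgr. Means run from 14.8 for Adcyap1r1 to 0.0865 for Glp1r, with Gcgr below all others.

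Glp2r encodes the receptor for GLP-2, a gut hormone that maintains the intestinal lining and that is also made in brainstem neurons from the same precursor as GLP-1. The gene (ENSMUSG00000049928.15) spans bases 67661502 to 67771153 of chromosome 11, minus strand, in GRCm38. It had 1340, 1098 and 1179 counts in heterozygous replicates 1 to 3, against 772, 811 and 802 counts in wild type replicates 1 to 3. Scaled to effective library size, these are 14.6, 13.3 and 13.0 CPM in heterozygous libraries, against 9.13, 9.11 and 9.10 CPM in wild type libraries. The lowest heterozygous library was thus above the highest wild type library, and that separation is the reason the gene was chosen. Heterozygous cortex averaged 13.6 ± 0.852 CPM and wild type cortex 9.11 ± 0.0188 CPM (SD, n = 3 each), a heterozygous level of 149% of wild type and a log2 difference of 0.58 with a standard error (SE) of 0.09. In bulk tissue, more cells that contain a transcript and more transcript per cell cannot be told apart.

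The wild type libraries lay closer together for Glp2r than counting alone would place them. Their coefficient of variation was 0.206%, and the heterozygous one 6.26%, while a count at the mean of all 6 libraries has a counting error of 3.16%. Exact Poisson 95% intervals, which cover counting error only, ran from 13.8 to 15.4, 12.5 to 14.1 and 12.3 to 13.8 CPM in heterozygous replicates 1 to 3, against 8.5 to 9.8, 8.49 to 9.76 and 8.48 to 9.75 CPM in wild type replicates 1 to 3. The SD of the wild type group therefore understates its error.

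Reads assigned to Glp2r may include reads of a neighbour, because the library kit does not mark strand. GENCODE M21 annotates 2 transcripts. Glp2r-202 has 13 exons and ends with a last exon of 3380 bases. Glp2r-201 has 10 exons, of which the last 2 lie inside Gas7, a gene transcribed in the other direction that encodes a neuronal growth arrest protein. These exons hold 851 of the 5815 exonic bases of Glp2r (14.6%), and 66 of them are also exonic in Gas7. Gas7 was abundant, at 465, 468 and 459 CPM in heterozygous libraries and 443, 424 and 477 CPM in wild type libraries, groups that overlapped, with a log2 difference of 0.05 (SE 0.07, 95% interval from -0.10 to 0.20). Glp2r counts amounted to 3.13%, 2.85% and 2.82% of Gas7 counts in heterozygous replicates 1 to 3, against 2.06%, 2.15% and 1.91% in wild type replicates 1 to 3. This ratio uses the same Glp2r counts that chose the gene and is given as a description. How many Glp2r counts fall in the shared stretch was not tested, since the values are per gene.

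**Figure D3:**
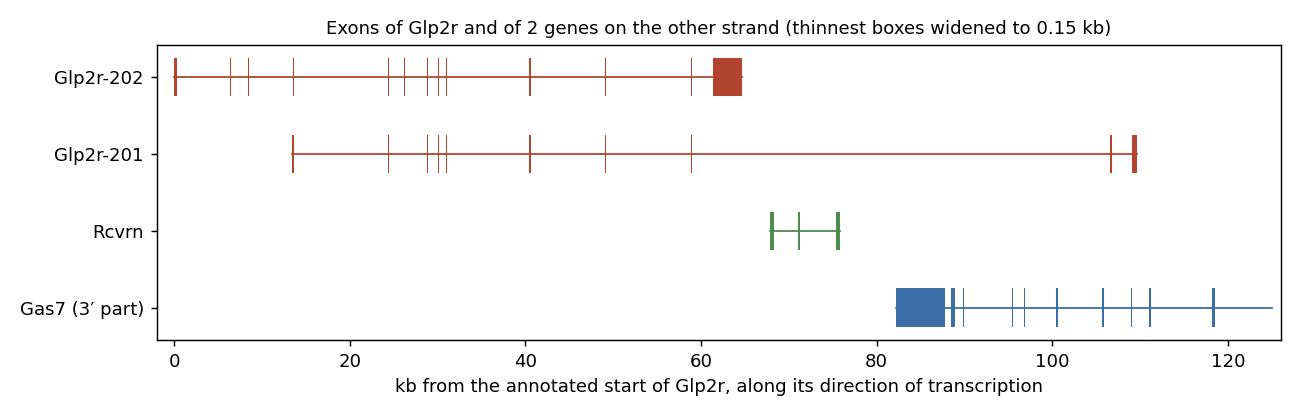
Exons (boxes) of the 2 Glp2r transcripts, of Rcvrn and of the 3′ part of Gas7, by distance in kilobases from the annotated start of Glp2r along its direction of transcription. Glp2r runs left to right, while Rcvrn and Gas7 run right to left on the other strand. Glp2r-202 ends before either gene, and the last 2 exons of Glp2r-201 lie within Gas7.

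For the 3 tested genes before and the 3 after Glp2r in order of start position along the chromosome, the genotype groups of each overlapped. Gas7 overlaps the end of Glp2r. Rcvrn encodes the photoreceptor calcium sensor recoverin, lies inside an intron of Glp2r-201 and was measured with 0.515 ± 0.211 CPM in heterozygous libraries, against 0.439 ± 0.184 CPM in wild type libraries (SD, n = 3 each). On the side of the Glp2r start, Usp43, a ubiquitin protease gene, was at 3.60 ± 0.362 and 4.24 ± 0.689 CPM, and 9130017K11Rik at 1.96 ± 0.276 and 1.5 ± 0.260 CPM. Beyond Gas7, on the side of the Glp2r end, the muscle myosin gene Myh13 was at 0.997 ± 0.0547 and 0.910 ± 0.440 CPM, and its relative Myh8 at 0.955 ± 0.366 and 0.527 ± 0.212 CPM. Their log2 differences ran from -0.23 for Usp43 to 0.86 for Myh8, and the smallest adjusted p by edgeR's quasi-likelihood test was 0.855, for Myh8.

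Across all genes, edgeR's quasi-likelihood test called 0 of 27939 genes at a Benjamini-Hochberg adjusted p under 0.05 (0%). The unadjusted p was under 0.05 for 1628 genes (5.83%), of which 683 were higher (2.44%) and 945 lower (3.38%) in heterozygous cortex, and DESeq2 called 59 of 25294 genes (0.233%). Groups of libraries did not overlap for 3278 genes (11.7%), with the heterozygous side higher in 5.88% and lower in 5.85% of genes tested. Of the 9 relatives of Glp2r 8 had enough counts for the test and Gcgr did not. Among these 8, 0 were called by edgeR and 0 by DESeq2, 1 stood at an unadjusted p under 0.05, and 1 had groups that did not overlap, all of which are near the background over all genes. That gene was Pth2r. Of the 8, 3 had a positive and 5 a negative log2 difference, with a median of -0.05, beside a median of 0.00 over all genes tested.

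Glp1r, the closest functional counterpart of Glp2r as the receptor of the other glucagon-like peptide, had few counts. Its level was 0.348, 0.728 and 0.286 CPM in heterozygous libraries, against 0.580, 0.438 and 0.635 CPM in wild type libraries, from 26 to 60 counts each. Heterozygous replicate 2 was the highest of the 6 and heterozygous replicate 3 the lowest, so the groups overlapped. The log2 difference of -0.29 had a 95% interval from -1.15 to 0.58. It was -0.79 without heterozygous replicate 2 and -0.04 without heterozygous replicate 3. Gipr was at 1.28, 1.15 and 1.90 CPM in heterozygous libraries, against 1.54, 0.696 and 1.93 CPM in wild type libraries, again overlapping, with a log2 difference of 0.06 (95% interval from -0.72 to 0.84), which turned to -0.19 on leaving out heterozygous replicate 3 and to -0.26 on leaving out wild type replicate 2. The interval of Gipr includes 0.58, the log2 difference of Glp2r, and the interval of Glp1r reaches up to it. Glp2r was chosen for that difference, and whether these receptors differ from it was not tested. Variation between libraries beyond counting, as edgeR estimates it, was 31.6% for Glp1r and 30.5% for Gipr, against counting errors of 15.1% and 8.96%.

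Crhr1, which mediates much of the action of CRH on cortical and limbic neurons, was at 24.2, 22.9 and 19.5 CPM in heterozygous libraries, against 27.7, 19.0 and 16.8 CPM in wild type libraries. Wild type replicate 1 was the highest and wild type replicate 3 the lowest, so the heterozygous libraries lay within the wild type range. The log2 difference was 0.07 (SE 0.17, 95% interval from -0.31 to 0.45), with 0.31 on leaving out wild type replicate 1 and -0.07 on leaving out wild type replicate 3. Crhr2, whose preferred ligands are the urocortins, was at 0.566, 0.303 and 0.483 CPM in heterozygous libraries, against 0.450, 0.472 and 1.33 CPM in wild type libraries. A single library, wild type replicate 3 with 117 counts, stood above the rest, and it is also the library with the highest summed striatum markers (1010 CPM) and choroid plexus markers (13.2 CPM, against 2.84 to 8.57 CPM in heterozygous libraries and 5.20 to 5.28 CPM in the other wild type libraries). The log2 difference of -0.73 (SE 0.45, adjusted p = 0.873 by edgeR) came to -0.03 without that library. The part of these cell types in the Crhr2 level was not tested.

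Vipr1 and Adcyap1r1 were the most precisely measured relatives. Vipr1 was at 30.5, 27.4 and 27.4 CPM in heterozygous libraries, against 30.1, 21.5 and 22.8 CPM in wild type libraries. Wild type replicate 1 reached the heterozygous range and wild type replicates 2 and 3 lay below it. The log2 difference was 0.20 (SE 0.12, adjusted p = 0.873 by edgeR), with a 95% interval from -0.08 to 0.47, and came to 0.36 when wild type replicate 1 was left out and 0.10 when replicate 2 was. Adcyap1r1 was at 99.4, 97.8 and 91.8 CPM in heterozygous libraries, against 102, 89.9 and 105 CPM in wild type libraries, with 8006 to 9232 counts in each library. Its groups overlapped and its log2 difference was -0.04 with a 95% interval from -0.20 to 0.13. That interval does not hold 0.58, the value of Glp2r, which was chosen for its difference. Whether Adcyap1r1 differs from Glp2r was not tested. Vipr2, the VIP receptor best known from the circadian pacemaker of the hypothalamus, was at 0.479, 0.412 and 0.835 CPM in heterozygous libraries, against 0.615, 0.472 and 0.726 CPM in wild type libraries, and its 95% interval from -0.81 to 0.68 was wide. Its log2 difference of -0.07 was -0.44 without heterozygous replicate 3 and 0.12 without heterozygous replicate 2.

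Pth2r encodes the receptor of TIP39, a peptide of the parathyroid hormone family made by small groups of thalamic and brainstem neurons and encoded by Pth2. Its level was 2.00, 2.06 and 1.79 CPM in heterozygous libraries, against 2.91, 2.46 and 2.52 CPM in wild type libraries, from 163 to 246 counts each. Every heterozygous library was below every wild type library, opposite to Glp2r. Means were 1.95 ± 0.142 and 2.63 ± 0.245 CPM (SD, n = 3 each), or 74.2% of wild type. The log2 difference of -0.43 (SE 0.15) did not pass edgeR's test, with an unadjusted p of 0.019 and an adjusted p of 0.828. It lay between -0.48 and -0.35 when each library was left out in turn. Summed thalamus markers overlapped between the groups (65.7 to 74.5 CPM in heterozygous and 63.4 to 73.3 CPM in wild type libraries). Slc17a6 alone made up 35.8 to 48.4 CPM of these sums. Of 7 thalamus markers tested, 4 had positive and 3 negative log2 differences. The part of thalamic tissue in the Pth2r value was not tested.

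**Figure D4:**
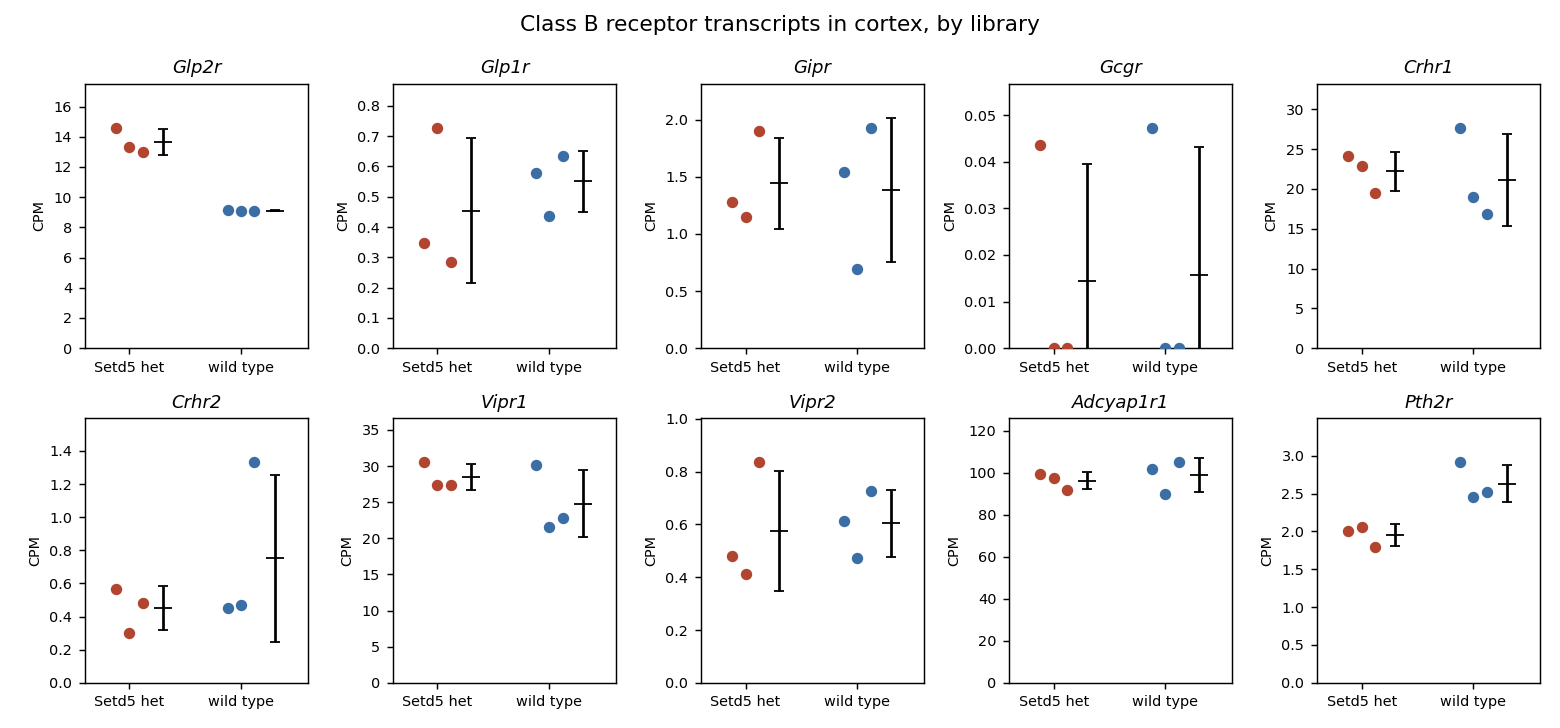
CPM of each of the 10 receptors by library, with 1 panel per gene and its own vertical axis from 0. Red points are heterozygous and blue points wild type libraries, and black bars give the mean and SD of 3 libraries (bars that pass below 0 are clipped at the axis). Only Glp2r (13.0 to 14.6 against 9.10 to 9.13 CPM) and Pth2r (1.79 to 2.06 against 2.46 to 2.91 CPM) have groups that do not overlap. Glp2r was chosen for its separation, and groups did not overlap for 11.7% of all genes tested.

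The remaining class B receptors were Calcrl, Pth1r, Sctr, Calcr and Ghrhr. Of these 5 genes 3 were tested, 0 were called, and their log2 differences were all negative, with a median of -0.33. Calcrl, which pairs with accessory proteins to bind CGRP or adrenomedullin and is abundant in vessel walls, was at 8.70, 8.19 and 7.91 CPM in heterozygous libraries, against 11.6, 9.39 and 10.2 CPM in wild type libraries. The groups did not overlap, and the log2 difference was -0.33 (SE 0.10, adjusted p = 0.799 by edgeR). Beside it, 6 of 7 endothelial markers and 8 of 8 mural markers had negative log2 differences, with medians of -0.24 and -0.43, and their part in the Calcrl value was not tested. The parathyroid hormone receptor Pth1r differed by -0.14 (SE 0.17) and the secretin receptor Sctr by -0.37 (SE 0.33), both with overlapping groups. Without heterozygous replicate 3 these values were -0.03 for Pth1r and -0.16 for Sctr. Calcr, the calcitonin receptor, had 0 to 6 counts per library, and Ghrhr had 10 counts in wild type replicate 2 and 0 elsewhere.

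The accessory proteins Ramp1, Ramp2 and Ramp3 set the ligand preference of Calcrl and can bind other class B receptors. Ramp3 was at 19.9, 25.8 and 19.1 CPM in heterozygous libraries, against 17.1, 16.0 and 10.7 CPM in wild type libraries. All 3 heterozygous libraries were above all wild type ones, and the log2 difference was 0.56 (SE 0.18), with an adjusted p of 0.797 by edgeR. It was 0.39 without wild type replicate 3, the lowest library. Ramp1 differed by -0.04 (SE 0.07) and Ramp2 by 0.09 (SE 0.08), with groups that overlapped.

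Ligand transcripts were present for CRH, VIP and PACAP and at or near the floor for most of the others. Of 13 ligand genes 6 were tested, 0 were called, and all 6 log2 differences were positive, from 0.09 to 0.42, with a median of 0.17. Adcyap1, which encodes PACAP, was at 32.9, 34.4 and 32.6 CPM in heterozygous libraries, against 40.5, 35.7 and 17 CPM in wild type libraries. Wild type replicates 1 and 2 lay above every heterozygous library and wild type replicate 3 below, with a log2 difference of 0.10 (SE 0.25). Vip, a marker of a class of cortical interneurons, was at 79.3, 81.1 and 67.6 CPM in heterozygous libraries, against 68.2, 76.0 and 52.4 CPM in wild type libraries, with overlapping groups and a log2 difference of 0.21 (SE 0.13), which was 0.08 when wild type replicate 3 was left out and 0.33 when replicate 2 was. Crh differed by 0.13 (SE 0.10) and the urocortin gene Ucn, with 4 to 24 counts per library, by 0.42 (SE 0.59). Crh came to 0.05 without heterozygous replicate 2. Ucn came to 0.01 without wild type replicate 1, to 1.2 without wild type replicate 3 and to 0.21 without heterozygous replicate 3. Gcg, which encodes the precursor of both GLP-1 and GLP-2, had 22, 15 and 7 counts in heterozygous replicates 1 to 3, against 0, 8 and 25 counts in wild type replicates 1 to 3. Its groups overlapped, the wild type range enclosing the heterozygous one, and the log2 difference was 0.40 (SE 0.91). Gip, Pth and Ucn3 had 0 counts in all 6 libraries, which allows up to 0.0364 CPM in the shallowest, and Pth2 had 5 to 10 counts in each library. Glp2r and Pth2r were therefore read in tissue where transcripts of their own ligands numbered at most 25 and 10 counts per library.

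Among 9 genes that process or bind these peptides, 0 were called, 5 had positive and 4 negative log2 differences, and the median was 0.03. Scg5, which encodes 7B2, the chaperone of the prohormone convertase PC2, was at 395, 378 and 351 CPM in heterozygous libraries, against 306, 337 and 257 CPM in wild type libraries. These groups did not overlap, with a log2 difference of 0.32 (SE 0.10, adjusted p = 0.797 by edgeR), and 0.22 without wild type replicate 3. The convertase inhibitor gene Pcsk1n differed by -0.17 (SE 0.11) and Pam, which amidates the ends of peptides, by -0.10 (SE 0.07). Pcsk1n came to -0.04 without wild type replicate 3 and Pam to -0.06 without heterozygous replicate 3.

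**Figure D5:**
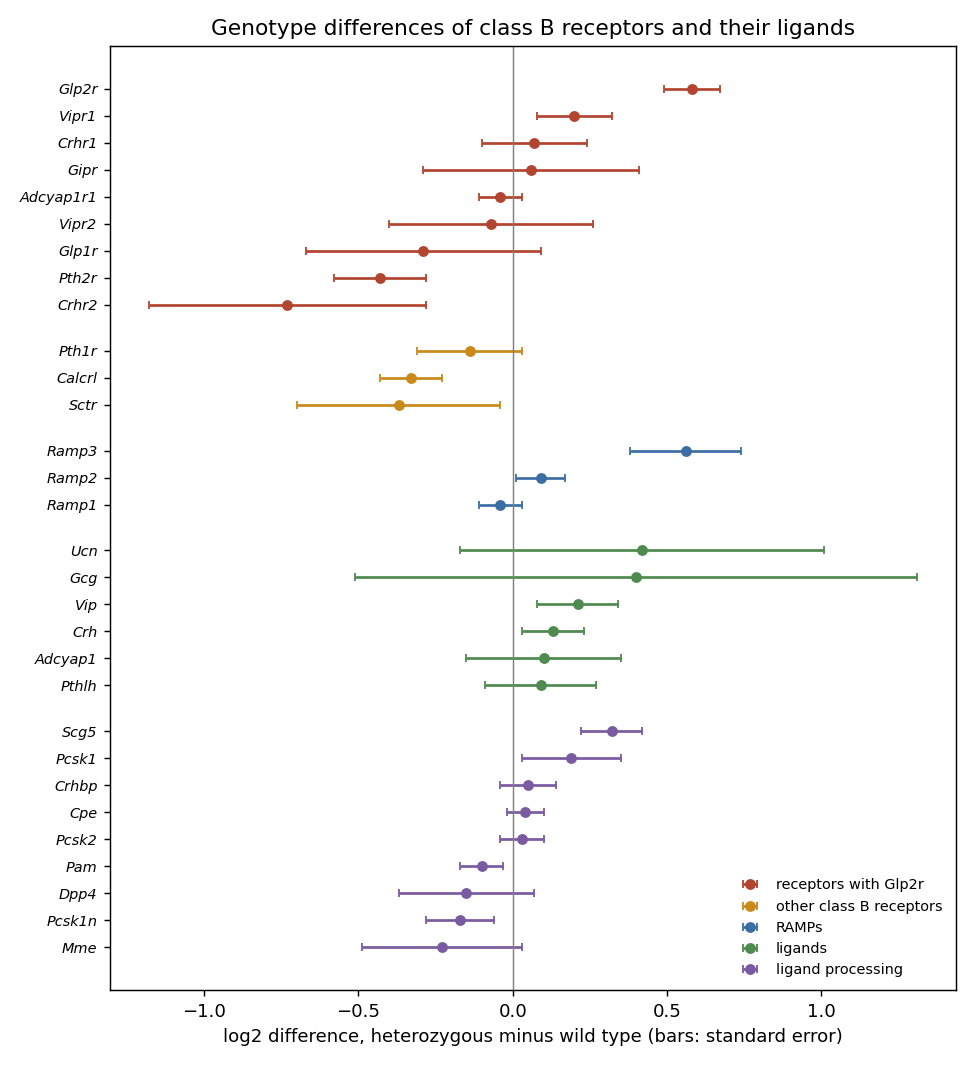
Log2 differences, heterozygous minus wild type (horizontal axis), of tested receptors, accessory proteins (RAMPs), ligands and ligand-processing genes (rows, grouped by colour), with bars for the standard error of the fit. Glp2r, at 0.58, was chosen for its position here. Ramp3 lies at 0.56, Pth2r at -0.43 and Crhr2 at -0.73 with a wide bar.

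Downstream of the receptors, 35 genes of Gs and cyclic AMP signalling were tested and 0 were called, with 10 positive and 25 negative log2 differences and a median of -0.03. Groups did not overlap for 3 of the 35, beside 11.7% of all genes tested. All 3 were lower in heterozygous libraries, beside 5.85% of all genes tested in that direction. The count is therefore not read as a result about these genes. Grk5, a kinase that phosphorylates activated receptors, had the smallest p. It was at 16.0, 16.5 and 16.9 CPM in heterozygous libraries, against 22.5, 20.1 and 20.8 CPM in wild type libraries, a log2 difference of -0.36 (SE 0.08, adjusted p = 0.719 by edgeR). Rapgef4, a cyclic AMP-gated exchange factor for the GTPase Rap, differed by -0.24 (SE 0.09) and the adenylyl cyclase gene Adcy2 by -0.11 (SE 0.06), both with groups that did not overlap. Rapgef4 came to -0.14 without wild type replicate 3. Adcy5, the main adenylyl cyclase of striatum, was at 63.0, 69.7 and 109 CPM in heterozygous libraries, against 73.7, 88.3 and 250 CPM in wild type libraries. Its log2 difference of -0.77 (SE 0.41) was -0.01 without wild type replicate 3, the library with the most striatum marker counts. It was -0.39 with the level of striatum markers as a covariate and -0.29 without the libraries with Xist above 1 CPM. The part of striatal tissue in the Adcy5 value was not tested.

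The genes whose levels followed Glp2r most closely over the 6 libraries were sought among 14125 tested genes with a mean of at least 1 CPM, predicted models left out. By Pearson's r of log2 CPM they were Kcnma1 (0.994), Rsbn1 (0.992), Pex16 (0.989), Trim9 (0.986) and Khk (0.982). Kcnma1, the pore subunit of the BK potassium channel, was at 392 ± 3.93 CPM in heterozygous libraries, against 342 ± 2.96 CPM in wild type libraries (SD, n = 3 each), and its rank order over the 6 libraries was that of Glp2r (Spearman's rho 1.00). Since Glp2r separates the genotypes, this measure mostly finds genes that do so as well. After the genotype means were removed, the most alike were Tmem65 (0.998), Ppp2r5e (0.993), Susd4 (0.993), Pdcl (0.990) and Khk (0.988). Glp2r ran only from 9.10 to 9.13 CPM in wild type libraries, so this second measure rests mostly on the 3 heterozygous libraries. With 6 libraries and this many genes such values describe these libraries only. Khk, which encodes the fructose kinase ketohexokinase, is on both lists and was at 5.86 ± 0.336 and 4.92 ± 0.0012 CPM.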

How the data were processed

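The authors deposited 1 table of unnormalized read counts per gene for each library. Bowtie2 2.3.4.3, featureCounts, FastQC and DESeq2 and the builds mm10 and GRCm38.p6 are named per the submitters' processing notes, which give neither order nor settings. Per the labels' protocols, libraries were made with a TruSeq v2 kit from DNase-treated RNA.

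All 55450 identifiers matched GENCODE M21. Genes were kept by filterByExpr (minimum count 10, minimum total 15), scaled by TMM and tested with the quasi-likelihood fit of edgeR 4.0.16 (R 4.3.3) on all 6 libraries with no covariate, adjusted by Benjamini-Hochberg over all genes tested (threshold 0.05). CPM uses effective library sizes, and log2 CPM a prior count of 1. The procedure was tested on simulated data. No 2 libraries agreed within sampling noise (chi-square per gene 11.8 to 94.0 over 15 pairs). Replicates are numbered by record order. Promoters come from RefSeq on GRCm38.p6, and protein sequences were not used here.

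Members and lists were chosen with earlier results of these data known. Genes named from each list are the 3 with the smallest p (4 for cyclic AMP signalling), and others are named where they help describe a ligand or receptor, after their values were seen. Alternatives were other scalings and filters, DESeq2 1.42.0, limma-voom (limma 3.58.1), the likelihood ratio test, each library left out, libraries with Xist above 1 CPM left out, and the striatum level as a covariate.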

Additional observations from a re-analysis of the deposited data

How the results depend on the processing

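The log2 difference of Glp2r lay between 0.52 and 0.61 over 16 alternatives. Glp2r was chosen for its difference in these same libraries, so this range is a description only. The differences of Vipr1 (0.10 to 0.36) and Pth2r (-0.48 to -0.35) kept their sign over the same 16. Crhr2, left out by the filter of 1 CPM in 3 libraries, kept its sign over 15 (-0.99 to -0.03, the last without wild type replicate 3). No relative of Glp2r was called under any alternative. The counts of genes called higher and lower, 0 and 0 in edgeR, were 1 and 5 with every gene of at least 1 count tested, 14 and 45 in DESeq2, 13 and 16 in the likelihood ratio test, and 0 in each direction in limma-voom, under the other scalings and filter, with the striatum covariate and without the libraries with Xist above 1 CPM. With each library left out they ran from 0 to 0 higher and from 0 to 2 lower, the 2 without wild type replicate 2; the cause was not tested.

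Signs turned round for several differences, most of them near 0 but also Rcvrn (0.23) and Glp1r (-0.29 with all 6 libraries). Leaving out 1 library at a time gave -0.11 to 0.01 for Adcyap1r1, -0.07 to 0.31 for Crhr1, -0.26 to 0.38 for Gipr, -0.44 to 0.12 for Vipr2, -0.14 to 0.57 for Myh13, -0.09 to 0.03 for Ramp1, -0.11 to 0.58 for Rcvrn, -0.04 to 0.06 for Ppp2r5e and -0.03 to 0.13 for Tmem65. Without the libraries with Xist above 1 CPM the values were 0.04 for Adcyap1r1, 0.07 for Glp1r, -0.18 for Myh13, 0.00 for Pcsk1n, 0.06 for Pth1r and 0.05 for Ramp1. With the longest transcript as length, Crhr2 (0.205 CPM per kilobase) ranked above Vipr2 (0.174).

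No paired analysis was possible because the labels give no replicate numbers that the genotypes share. Depth limits Gcgr, with at most 4 counts in a library. For Glp1r, Crhr2 and Vipr2 the variation between libraries beyond counting (31.6%, 38.0% and 27.7%) exceeded the counting error (15.1%, 13.7% and 13.9%).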
